A study of Mus musculus with 11 samples.

Results

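The promoters described here are those of 9 genes of cortical intermediate progenitors, out of 21881 gene promoters with read counts for ST18 chromatin immunoprecipitation (ChIP) and input DNA. The 9 genes were Eomes, Btg2, Insm1, Gadd45g, Rhbdl3, Nhlh1, Sstr2, Mfng and Elavl4, taken by symbol from the deposited promoter table. All 9 had a window in it, of 1000 bp. They were chosen by their ST18 and input counts, as genes of this cell state already known to have a low ST18 to input ratio together. The counts and ratios below therefore describe them and carry no test. Other lists of intermediate progenitor genes, read further below, had summed ratios 0.980-fold and 1.20-fold that of all promoters. The question was which of the 9 carry the low ratio of the 9.

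Intermediate progenitors are the basal, neurogenic progenitors of the developing cortex. They arise from apical radial glia, settle in the subventricular zone, divide to give neurons and are known for the T-box factor Eomes (Tbr2). ST18 belongs, with MYT1 and MYT1L, to a family of zinc finger proteins whose fingers bind a short DNA core, AAGTT, and the study's title calls it a repressor of transcription.

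The ST18 group had 2 labelled samples of ChIP against an HA tag, and the input group had 1 sample of genomic DNA, both from mouse cells in vitro that the labels name TN and describe as brain cells. What TN stands for, how tagged ST18 was introduced and how many cultures were used is nowhere given in these sources. The protocol attached to these samples is that of cortex dissociation and RNA isolation, and the input sample carries the HA ChIP molecule label while it is named input in its title. The 4 ST18 knockdown and 4 non-targeting control RNA samples of the study were not analysed here.

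The table holds 1 ST18 column and 1 input column, with no statement on whether the ST18 column pools both ChIP samples. No value therefore has a replicate error. The ST18 column sums to 438960 reads and the input column to 160443, a ratio of 2.74 over all promoters, and 523 windows held no reads. The median window held 20 ST18 reads and 7 input reads. In what follows, the fold of a promoter is its ST18 to input ratio divided by that of all promoters together, with its 95% binomial interval by the exact Clopper-Pearson method. These intervals cover counting error alone, since there is 1 column per group. Reads counted without molecular identifiers may be copies of 1 molecule, so the intervals may be too narrow even for that error. The log2 enrichment is the authors' deposited value, in which a pseudocount of 16 pulls low counts towards 0.

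Proximal promoter sequences are shown for the 4 members with the lowest folds, and for Elavl4, whose fold was close to 1, as a contrast. They are RefSeq sequences of build GRCm38.p6, from 250 bases before to 50 bases after an annotated start site, and capitals mark AAGTT or its reverse complement AACTT. They are not the counted windows, whose position around the start site the sources used here do not give.
Eomes, chr9:118477939-118478238, + strand: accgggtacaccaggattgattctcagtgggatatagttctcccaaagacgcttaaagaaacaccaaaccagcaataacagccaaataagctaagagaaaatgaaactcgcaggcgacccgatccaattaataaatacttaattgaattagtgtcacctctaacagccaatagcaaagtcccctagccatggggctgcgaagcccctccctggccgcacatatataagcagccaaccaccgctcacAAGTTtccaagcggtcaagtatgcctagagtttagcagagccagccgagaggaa
Nhlh1, chr1:172057547-172057846, - strand: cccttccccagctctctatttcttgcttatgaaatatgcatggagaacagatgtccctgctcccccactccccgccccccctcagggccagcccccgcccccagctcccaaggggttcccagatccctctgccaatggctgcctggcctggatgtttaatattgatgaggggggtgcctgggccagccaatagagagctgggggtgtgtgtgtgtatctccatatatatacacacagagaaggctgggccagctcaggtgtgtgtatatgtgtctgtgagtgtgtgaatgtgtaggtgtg
Gadd45g, chr13:51846425-51846724, + strand: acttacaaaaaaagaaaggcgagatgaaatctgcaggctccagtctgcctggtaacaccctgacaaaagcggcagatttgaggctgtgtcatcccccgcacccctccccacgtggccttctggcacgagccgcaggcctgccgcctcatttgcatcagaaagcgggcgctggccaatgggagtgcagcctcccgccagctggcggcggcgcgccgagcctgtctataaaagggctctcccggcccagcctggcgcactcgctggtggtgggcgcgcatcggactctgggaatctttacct
Btg2, chr1:134079106-134079405, - strand: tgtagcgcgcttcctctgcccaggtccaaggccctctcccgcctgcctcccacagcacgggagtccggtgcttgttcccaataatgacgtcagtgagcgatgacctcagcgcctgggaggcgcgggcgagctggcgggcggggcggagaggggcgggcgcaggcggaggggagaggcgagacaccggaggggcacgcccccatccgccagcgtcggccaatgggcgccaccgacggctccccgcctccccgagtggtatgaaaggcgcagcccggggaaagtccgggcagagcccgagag
Elavl4, chr4:110351862-110352161, - strand, the outermost of 4 annotated start sites: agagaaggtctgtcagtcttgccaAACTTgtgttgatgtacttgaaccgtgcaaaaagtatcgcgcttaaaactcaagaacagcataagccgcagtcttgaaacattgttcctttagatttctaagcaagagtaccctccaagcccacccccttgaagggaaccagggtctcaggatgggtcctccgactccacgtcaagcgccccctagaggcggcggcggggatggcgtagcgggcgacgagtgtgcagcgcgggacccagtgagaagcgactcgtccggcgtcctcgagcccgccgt

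Together the 9 promoters held 158 ST18 reads against 81 input reads, a fold of 0.713 (exact 95% interval 0.542 to 0.944). Eomes had the lowest fold of the 9, followed by Nhlh1, Gadd45g and Btg2. These 4 members had a fold of 1/1.5 or less, and no member had a fold of 1.5 or more. Over all 21122 windows with at least 1 input read, 21.5% had a fold of 1/1.5 or less and 21.4% a fold of 1.5 or more. Eomes was also the 1 member whose interval lay below 1, against 3.36% of these windows, and the 1 member with a fold of 1/2 or less, against 9.29%. A fold of 4/5 or less was held by 6 members, with Rhbdl3 and Sstr2 added, against 33% of these windows. The deposited log2 enrichment was below 0 in 7 of the 9, against 40.5% of all windows. Its median over the 9 was -0.14, beside 0.04 over all windows.

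**Figure D1:**
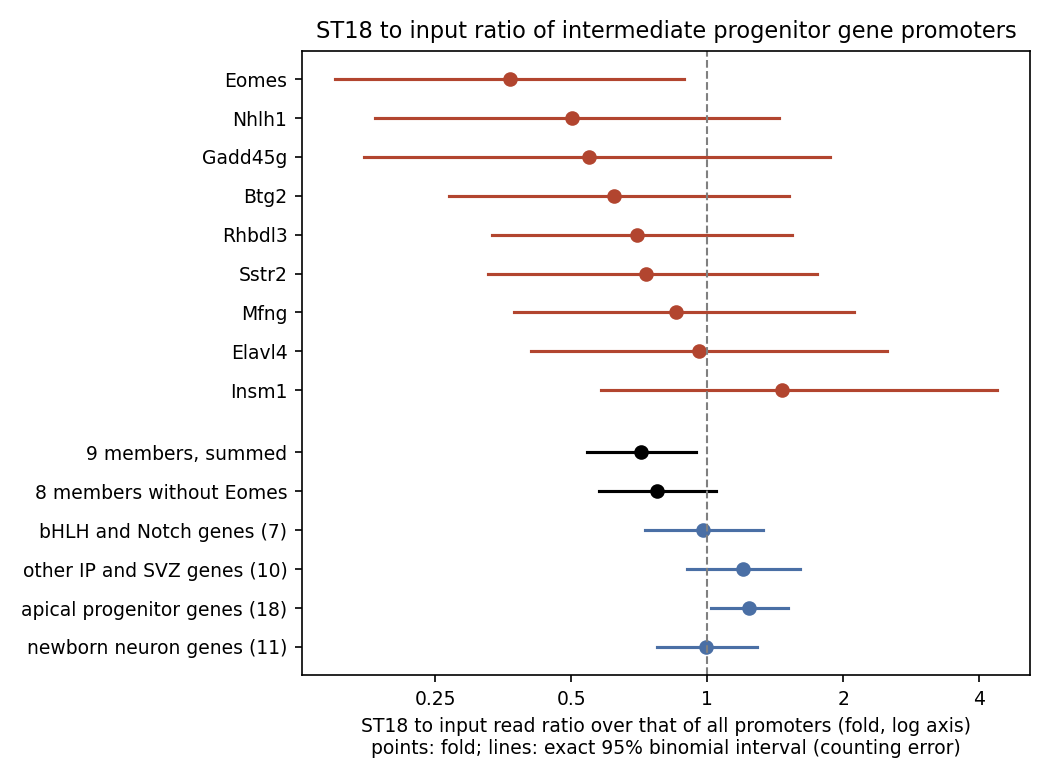
Fold of the ST18 to input read ratio over that of all promoters (log axis) for each of the 9 members in red, for their sum with and without Eomes in black, and for other lists of cortical genes in blue; IP is intermediate progenitor and SVZ subventricular zone, and lines are exact 95% binomial intervals of counting error. The interval of the sum of 9 ends at 0.944, and without Eomes it runs to 1.05. These overlapping intervals are no test, as the members were chosen on the same counts.

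Among the transcription factors, Eomes encodes the T-box protein that defines these cells. Its promoter held 12 ST18 reads and 12 input reads, a fold of 0.366 (0.150 to 0.889) and a log2 enrichment of -0.42. Its ST18 count lay at the 19.1st percentile of all windows and its input count at the 90.2nd, so both counts moved the ratio down. Of the other windows, 19 held the same pair of counts, among them, in alphabetical order, Abca15, Ccdc123, Ddx39, Dip2c and Fam123b. The Eomes ratio was therefore low without being the lowest of the table: its log2 enrichment lay at the 1.77th percentile.

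Nhlh1 encodes a basic helix-loop-helix factor of newly committed neural cells. It held 11 ST18 reads against 8 input reads, a fold of 0.503 (0.184 to 1.44) and a log2 enrichment of -0.23. Here the ST18 count was low, at the 16.4th percentile, while the input count lay at the 59.0th. Insm1, a zinc finger factor that drives the formation of basal progenitors, stood at the other end of the 9. With 24 ST18 reads against 6 input reads it had a fold of 1.46 (0.582 to 4.37) and a log2 enrichment of 0.23. The 3 transcription factor promoters thus spanned the full range of the 9, from the lowest to the highest.

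Btg2 (Tis21) and Gadd45g are linked to cell cycle exit, Btg2 as an antiproliferative protein of neurogenic progenitors and Gadd45g as a growth arrest and stress-response protein. Btg2 held 17 ST18 reads against 10 input reads, a fold of 0.621 (0.269 to 1.52) and a log2 enrichment of -0.18. Gadd45g held 9 ST18 reads against 6 input reads, a fold of 0.548 (0.174 to 1.87) and a log2 enrichment of -0.16. Gadd45g had the fewest ST18 reads of the 9, at the 11.8th percentile of all windows, and its input count was below the median as well. Both intervals included 1.

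The remaining members encode membrane, Notch-modifying and RNA-binding proteins. Rhbdl3 encodes a rhomboid-like membrane protein, and its promoter held 23 ST18 reads against 12 input reads, a fold of 0.701 (0.335 to 1.54). Sstr2 encodes a somatostatin receptor and held 20 ST18 reads against 10 input reads, a fold of 0.731 (0.327 to 1.75). Mfng encodes a fringe glycosyltransferase that modifies Notch receptors, and held 21 ST18 reads against 9 input reads, a fold of 0.853 (0.374 to 2.12). None of these 3 promoters had fewer ST18 reads than the median window, and all 3 had more input reads than it. Elavl4 (HuD), a neuronal RNA-binding protein, held 21 ST18 reads against 8 input reads, a fold of 0.959 (0.408 to 2.50). Btg2 at 0.621 and Rhbdl3 at 0.701 were the members on either side of the fold of 1/1.5.

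**Figure D2:**
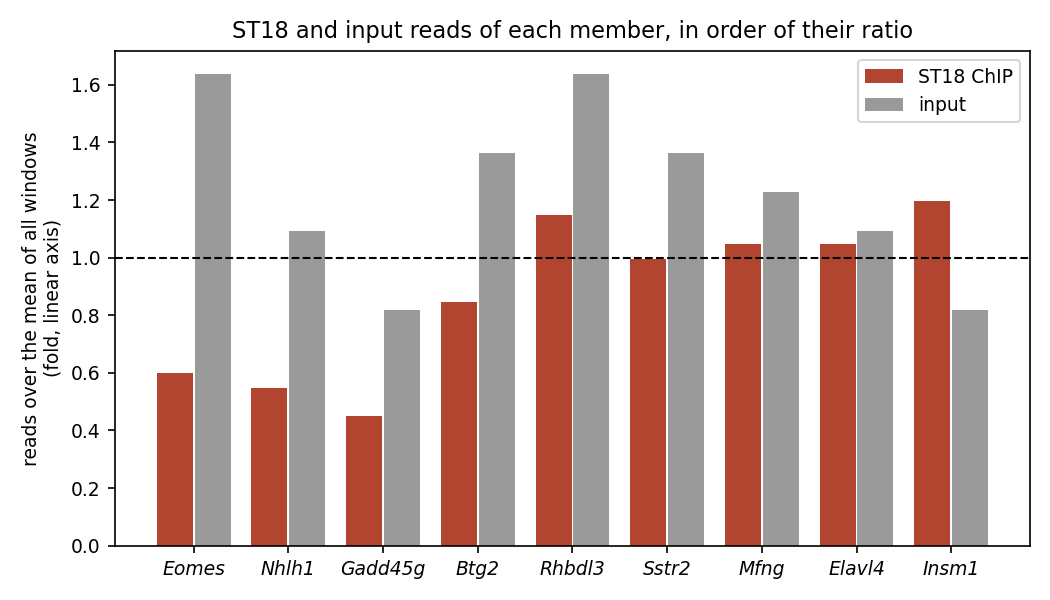
ST18 ChIP reads (red, left bars) and input reads (grey, right bars) of each member, each over the mean of all windows on a linear axis, with members in order of their ST18 to input ratio; no error bars are drawn because each bar is 1 count. Eomes pairs a low ST18 bar of 0.598 with a high input bar of 1.64, whereas Nhlh1 and Gadd45g have low ST18 bars, and Rhbdl3 an equally high input bar beside an ST18 bar of 1.15.

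Over the 9 promoters, the mean ST18 count was 17.6, or 0.875-fold that of all windows, and the mean input count was 9.0, or 1.23-fold. The low summed ratio thus had a part in each column. The median ST18 count of the 9 was 20, equal to that of all windows, with 4 members above it and 4 below it. Of the input counts, 7 were above the median of all windows and 2, those of Insm1 and Gadd45g, were below it.

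At the ratio of all promoters, the 81 input reads of the members would go with 222 ST18 reads, which leaves the 158 observed 63.6 reads short. That takes the input counts, which were above the mean, as given. Splitting the ST18 and input reads of the members together at the same ratio gives 175 ST18 reads, and a shortfall of 17.0. The share of each member is the same in both forms. Eomes accounted for 32.7% of the shortfall (20.8 of the 63.6 reads), Nhlh1 for 17.1%, Btg2 for 16.3% and Rhbdl3 for 15.5%. Gadd45g and Sstr2 contributed 11.7% and 11.6%, Mfng 5.70% and Elavl4 1.40%, while Insm1 ran the other way, with -11.9%. These shares apply 1 ratio at every input count, although ratios fell as the input count rose, as described below. Against windows with its own input count, Rhbdl3 was hardly short (23 ST18 reads, median 24). Gadd45g was further short (9, median 20), so the order of the shares depends on that choice. Without Eomes, the remaining 8 promoters held 146 ST18 reads against 69 input reads, a fold of 0.773 (0.577 to 1.05), whose interval included 1. Leaving out any other member gave a fold between 0.653 (without Insm1) and 0.736 (without Nhlh1), each with an interval below 1. The 0.773 without Eomes lay within the interval of the sum of 9, 0.542 to 0.944. Whether these intervals include 1 is no test of Eomes, because the 9 were chosen on the same counts. The 4 lowest members held 49 ST18 reads against 36 input reads (0.497-fold, 0.317 to 0.787), and the other 5 held 109 against 45 (0.885-fold, 0.620 to 1.28), a split made on the same counts.

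Ratios at these depths fall as the input count rises. Across the table, windows with 6 input reads had a median of 20 ST18 reads, and the 956 windows with 12 input reads had a median of 24 (interquartile range 19 to 29), so the ratio of those medians to their input counts fell to 0.731-fold at 12 input reads, against 1.22-fold at 6. Set against windows with its own input count, Eomes still had few ST18 reads, 12 against a median of 24. Rhbdl3, with the same input count, held 23 and lay close to that median. Nhlh1 held 11 ST18 reads against a median of 22 (17 to 27) in windows with 8 input reads, and Gadd45g held 9 against a median of 20 (15 to 26) in windows with 6. Eomes, Nhlh1 and Gadd45g were the 3 members below the interquartile range of such windows. By definition, about the lowest quartile of all windows at an input count lies there, and the 3 of 9 were not tested against that share. Btg2 held 17 ST18 reads against a median of 22 (17 to 28), at the edge of that range, and Sstr2 held 20 against the same 22. Summed over the 9, the 158 ST18 reads compare with 198 for the medians at the same input counts, a fold of 0.798, a comparison chosen after seeing the data.

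**Figure D3:**
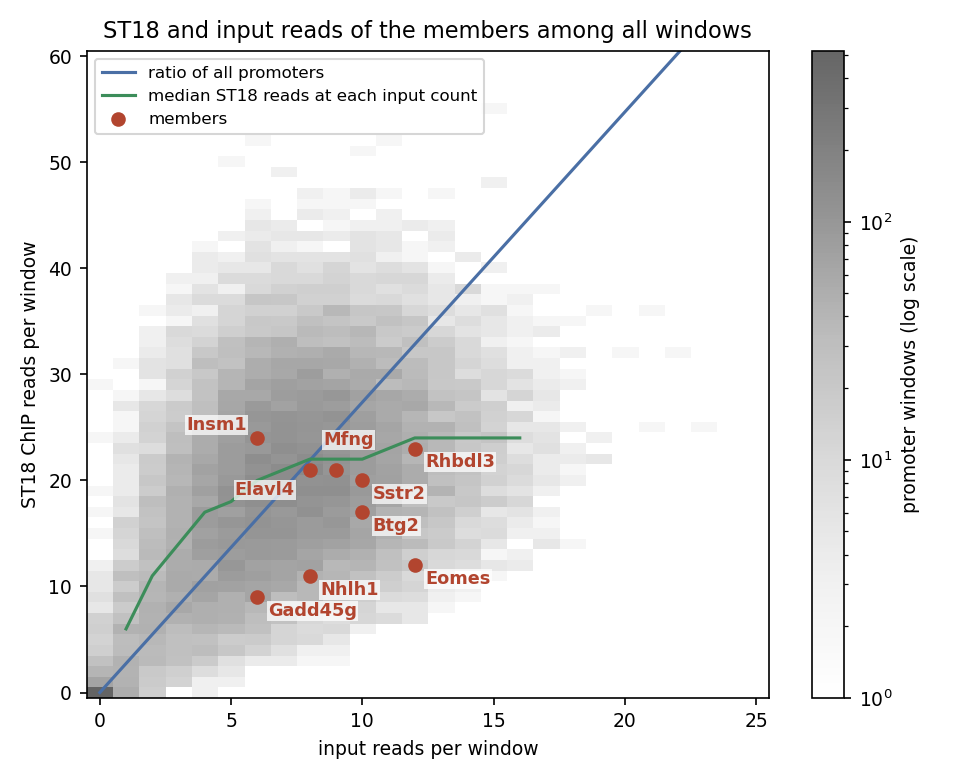
ST18 ChIP reads (vertical axis) against input reads (horizontal axis) per promoter window; grey shading counts all windows in the plotted range on a log scale, red points are the 9 members, the blue line is the ratio of all promoters and the green line the median ST18 count at each input count held by at least 100 windows. Eomes, Nhlh1 and Gadd45g lie well under the green line, while Rhbdl3, Sstr2, Mfng and Elavl4 lie close to it and Insm1 above it.

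The members were next set beside the promoters of their paralogs, genes of the same protein family. Of 21 paralogs, 18 had a higher log2 enrichment than their member. Since the members were known to be low, this count is a description of them as much as of the paralogs. Most of all windows were also higher than each member except Insm1. The log2 enrichment lay at the 1.77th percentile of all windows for Eomes, 10.5th for Nhlh1, 14.7th for Btg2 and 17.1st for Gadd45g. It lay at the 19.2nd for Rhbdl3, 23.6th for Sstr2, 35.8th for Mfng, 48.1st for Elavl4 and 79.1st for Insm1. The 18 of 21 were not tested against these shares and do not set the paralogs apart from other windows. The 21 paralogs had a median log2 enrichment of 0.15, beside 0.04 over all windows, and a summed fold of 1.13 (0.938 to 1.36), from 475 ST18 reads against 154 input reads. Tbr1, the T-box factor of postmitotic deep-layer neurons that follows Eomes in the cortical lineage, held 20 ST18 reads against 7 input reads (log2 0.07), and Tbx21, the third gene of that subfamily, held 20 against 10 (log2 -0.11). Eomes was thus lower than both, with 12 against 12.

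Gadd45g, with 9 ST18 reads against 6 input reads, was set beside Gadd45a with 24 against 5 (log2 0.29) and Gadd45b with 24 against 8 (log2 0.10). Nhlh1, with 11 against 8, was set beside Nhlh2 with 25 against 7 (log2 0.18). The Gadd45g and Nhlh1 promoters differed from these relatives mainly in the ST18 count. Insm1, highest among the members at 24 against 6, was still below Insm2, which held 38 against 3 (log2 0.73, 4.63-fold, 1.47 to 23.4). Insm2 and Elavl2, with 27 against 2 (log2 0.58), were the paralogs whose interval lay above 1, against 2.34% of windows with input reads.

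Btg2 (log2 -0.18) was below all of Btg1, Btg3, Tob1 and Tob2, which ranged from -0.14 for Tob2 to 0.19 for Btg1. Mfng (log2 -0.03) was below the other fringe genes, Lfng at 0.27 and Rfng at -0.02, the last by less than 0.01. Among the somatostatin receptor genes, Sstr2 (-0.11) lay between Sstr1, the lowest at -0.25, and Sstr5, the highest at 0.34. Among the rhomboid-like genes, Rhbdl3 (-0.14) lay between Rhbdl2 at -0.18 and Rhbdl1 at -0.0027. Among the Elav genes, Elavl4 (0.03) lay between Elavl1 at -0.26 and Elavl2 at 0.58. The 3 paralogs below their member were therefore Sstr1, Rhbdl2 and Elavl1.

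**Figure D4:**
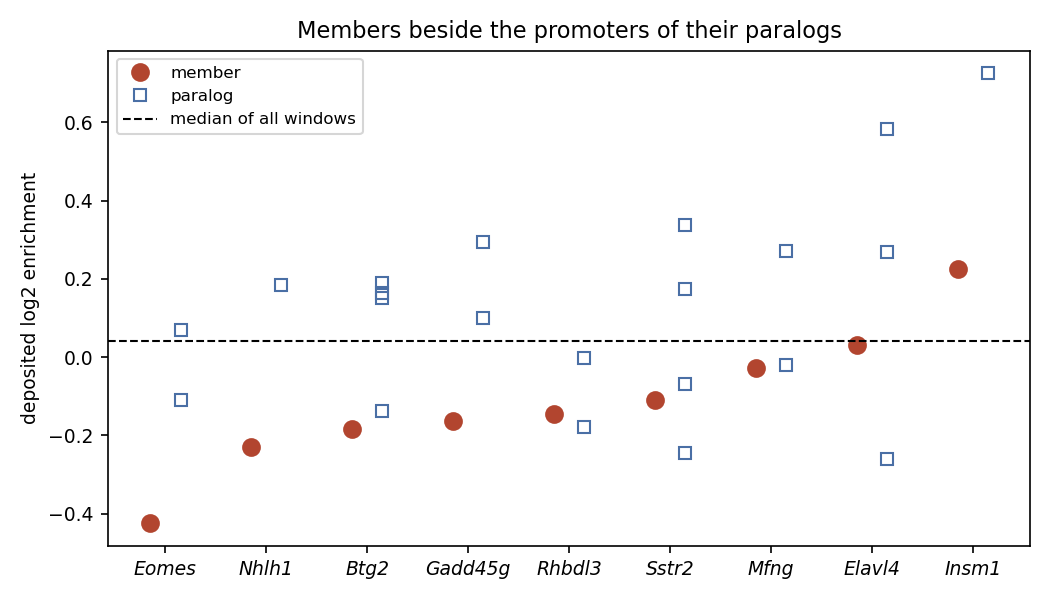
Deposited log2 enrichment (vertical axis) of each member (red circles) and of its paralogs (open blue squares), with members in order of their value and the median of all windows as a dashed line. The paralogs of Eomes, Nhlh1, Btg2, Gadd45g, Mfng and Insm1 all lie above their member, and those of Rhbdl3, Sstr2 and Elavl4 lie on both sides. Every member except Insm1 lies below the dashed line, so most of all windows were higher than it too.

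Neighbouring promoters were read next, beside those of the members. For each member the nearest protein-coding gene in the table was taken on either side, by start position on GRCm38.p6 and at any distance. The neighbours, unlike the members, were not chosen on their counts, so members chosen as low would tend to lie below them anyway. As the neighbours were also taken at any distance, their values cannot show how far along the chromosome a low ratio extends. These 18 neighbours held 443 ST18 reads against 143 input reads, a fold of 1.13 (0.936 to 1.38), and 6 of them had a fold of 1.5 or more, against 21.4% of all windows with input reads. Of the 18, 1 had a fold of 1/1.5 or less, against 21.5% of those windows: Agbl4 beside Elavl4 (16 against 9). The interval of 1 neighbour, Vangl2, lay above 1. Beside Eomes, Cmc1 held 28 against 10 and Golga4 held 33 against 7. Beside Nhlh1, Vangl2, a planar cell polarity gene, held 31 against 4 (log2 0.51), and Ncstn, which encodes the nicastrin subunit of gamma-secretase, held 25 against 5 (log2 0.32). Beside Gadd45g, Sema4d held 26 against 4 and Diras2 held 20 against 8. The neighbours of the 3 members with few ST18 reads thus each held at least 20 ST18 reads, and no neighbour shared its member's pair of counts.

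Other genes of the same lineage were compared by lists. Nhlh1 and Mfng, though a basic helix-loop-helix factor and a modifier of Notch receptors, were counted among the 9 and in none of these lists. The 7 basic helix-loop-helix and Notch genes of intermediate progenitors held 169 ST18 reads against 63 input reads, a fold of 0.980 (0.730 to 1.33), with a median log2 enrichment of 0.09. Their mean input count was 9.0, as in the 9 members, while their mean ST18 count was 24.1, beside 17.6 in the members. In this list 2 genes had a fold of 1/1.5 or less, Neurod4 with 19 ST18 reads against 13 input reads and Neurog1 with 19 against 12. Another 2 had a fold of 1.5 or more, Neurod1 with 23 against 4 and Dll1 with 32 against 7. Of all windows with input reads, 21.5% had a fold of 1/1.5 or less and 21.4% a fold of 1.5 or more. The difference between the 9 and these 7 was not tested, because the choice of the 9 used the same counts.

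A further 10 genes of intermediate progenitors or of the subventricular zone had a summed fold of 1.20 (0.903 to 1.61) and a median log2 enrichment of 0.15, and Ppp1r17, also on that list, was not analysed here. Mfap4 was highest of the 10 with 33 ST18 reads against 7 input reads, and Unc5d, a netrin receptor gene of the subventricular zone, was lowest with 10 against 7. Of the 10, 4 (Cux1, Penk, Tac2 and Mfap4) had a fold of 1.5 or more and 2, Unc5d and Slc17a6, a fold of 1/1.5 or less, beside 21.4% and 21.5% of all windows with input reads. Both other intermediate progenitor lists thus had a summed fold above the 0.713 of the 9 members, with intervals that overlapped theirs, and the differences were not tested.

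The stages before and after were also read. The 18 apical progenitor genes held 454 ST18 reads against 134 input reads, a fold of 1.24 (1.02 to 1.51), with a median log2 enrichment of 0.20, from Hes5 at -0.43 to Hey1 at 0.50. For 11 genes of newborn projection neurons the fold was 0.996 (0.776 to 1.29) and the median log2 enrichment 0.07, from Sox5 at -0.38 to Fezf2 at 0.50, while Map2 was not analysed here. A fold of 1/1.5 or less was held by 2 of the 18 and 3 of the 11, against 21.5% of windows with input reads. A fold of 1.5 or more was held by 7 of the 18 and 1 of the 11, against 21.4%. Hes5, with 19 ST18 reads against 16 input reads, and Sox5, with 21 against 16, were each close to Eomes in log2 enrichment. The Hes5 value lay just below that of Eomes. Hes5 and Sox5 had input counts above that of Eomes and ST18 counts near the median window. As for Eomes, their intervals lay below 1, at 0.211 to 0.902 for Hes5 and 0.239 to 0.983 for Sox5. The interval of Hey1 lay above 1 (1.01 to 16.9). Marker lists of other cell types had summed folds of 1.33 (0.898 to 2.02) for interneurons, from Dlx2 to Gad1, 1.27 (0.837 to 1.97) for microglia, from P2ry12 to Tmem119, and 1.23 (0.851 to 1.82) for endothelium, from Pecam1 to Cdh5. Counts of genomic DNA do not measure expression, so these lists give no identity to the TN cells.

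Base composition of the promoters was compared with the ratios. RefSeq promoter sequences were found for 6 of the 9 members, not for Insm1, Rhbdl3 and Mfng. The Eomes promoter had 47.3% GC, at the 23.3rd percentile of the 12270 genes of the table with 1 listed promoter, whose median was 57.0%. It was the least GC-rich of the 5 members with a single promoter. The Btg2 promoter had 72.0% GC and 32 CpG sites, at the 91.5th and 88.3rd percentiles, Sstr2 had 66.3% GC and Gadd45g 62.3%. Nhlh1 had 56.3% GC but 2 CpG sites, at the 15.9th percentile. The 4 promoters of Elavl4 had between 43.7% and 57.0% GC, and the sources used here do not say which of them was counted.

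The 12270 genes were put into 5 groups of equal size by GC content. The summed fold was 0.885 in the group with the lowest GC and 1.06 in the group with the highest, and Spearman's rho between GC content and log2 enrichment was 0.13, a description across promoters that share both libraries. Eomes, at 0.366, lay in the next to lowest group, whose fold was 0.968. The members with a single promoter each lay below the fold of the group that held them. As the members were chosen on these counts, this describes them and is no test. Insm1, the 1 member with a fold above 1, had no sequence to place. The part of base composition in the ratios of single members was not tested.

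**Figure D5:**
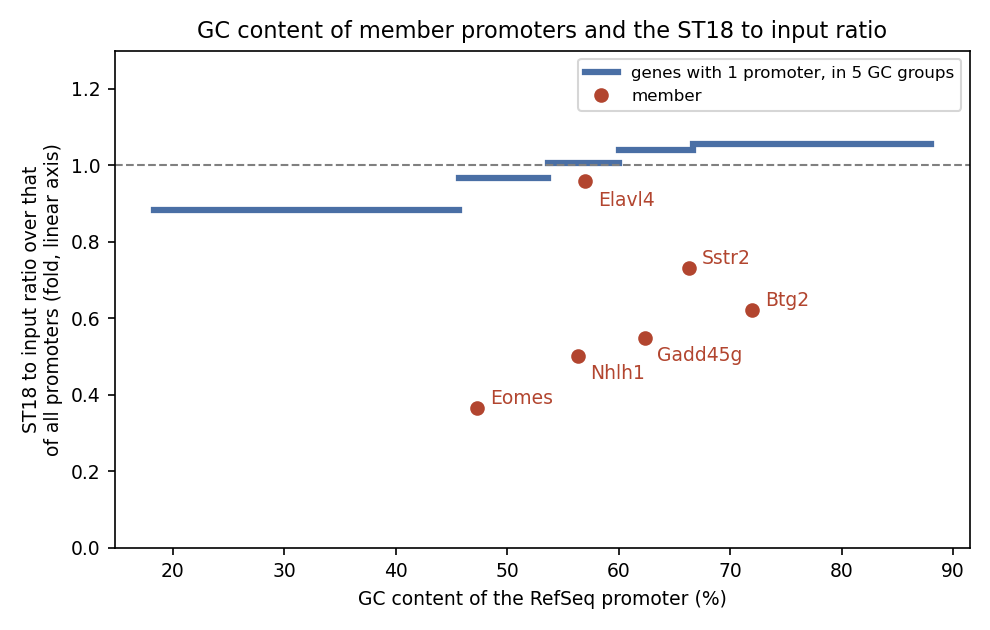
GC content of the RefSeq promoter (horizontal axis) and fold of the ST18 to input ratio over that of all promoters (linear vertical axis); blue bars are 12270 genes with 1 listed promoter in 5 groups by GC content, each drawn over its GC range, red points are the 6 members with a RefSeq promoter, and Elavl4 is placed by the promoter printed above. The bars run between 0.885 and 1.06, while Eomes, Nhlh1, Gadd45g, Btg2 and Sstr2 lie between 0.366 and 0.731; counting intervals of the members are those of the plot of folds by gene.

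The MYT1 family core AAGTT was searched on both strands of the promoter sequences. The members had 9 sequences from 6 genes, as Elavl4 had several. The core was found in 2 of these 9 sequences. It lay once in Eomes at positions -4 to +1 from the annotated start site and once in the printed Elavl4 promoter, as AACTT at -226 to -222. Of all 32851 RefSeq promoters of this length, 39.3% held it. The longer AAAGTTT, which contains the core, was in none of the 9 sequences and in 4.74% of all. The Nhlh1, Gadd45g, Btg2 and Sstr2 promoters held neither within these 300 bases. Eomes, with the lowest ratio, and Elavl4, with a ratio near that of all promoters, were thus the members with the core in the printed stretch. Over the 12270 genes with 1 listed promoter, the summed fold was 1.01 with 0 sites of the core and 0.982 with 1. It was 0.959 with 2 sites and 0.928 with 3 or more. This relation was not tested, nor separated from GC content.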

How the data were processed

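The deposited promoter table holds raw read counts per 1000 bp window for ST18 ChIP and input, and a log2 enrichment made by the authors; the tools behind it are not stated, and the submitters' processing notes list Bowtie and MACS2 2.0.10.20120913 among others, with build mm9. With the ST18 count scaled by 0.406 and a pseudocount of 16 added to both counts, the log2 of their ratio matched the deposited log2 enrichment within 1e-06 in all 21881 windows. The deposited peak list, in mm9 coordinates, was not used here, because the reference tables are in GRCm38.p6.

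Folds with exact 95% binomial intervals were computed from the counts with Python 3.11.15, numpy 2.4.6, pandas 2.3.3 and scipy 1.17.1, and the interval code was tested on simulated data. No test was made, since the table has 1 column per group and the members were chosen on the same counts. Both ChIP samples and their spread could not be separated. The depth is that of the table: 438960 ST18 and 160443 input reads.

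The members, gene lists, paralogs and motifs were chosen with earlier results of these data known. Named were all members, most of their paralogs, the highest and lowest gene of each list, and some of the neighbouring genes. Also named were some genes with the same counts as the lowest member. Other genes past a fold of 1.5 in either direction were named after their values were seen. Alternatives covered the pseudocount, the scaling, the ratio of all promoters, an input filter, the fold limit, the promoter stretch and leaving out each member.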

Additional observations from a re-analysis of the deposited data

How the results depend on the processing

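The summed fold of the 9 members, 0.713, was 0.683 against the ratio of the median counts, 0.719 without the 1% of windows with most reads, 0.793 against windows with more than 5 input reads, 0.701 as the median of the 9 folds and 0.798 against windows of the same input count. Leaving out each member in turn gave 0.653 to 0.773. The interval included 1 without Eomes (0.577 to 1.05) and against windows with more than 5 input reads (0.603 to 1.05). These intervals describe the counts and are no test. The 4 members with a fold of 1/1.5 or less became 1 (Eomes) at a fold limit of 2, where 9.29% of windows passed, 6 at a fold of 4/5 or less, where 33% passed, and 3 against windows with more than 5 input reads, where Btg2 stood at 0.691. Eomes was the 1 member with an interval below 1 in each of the ratios of all promoters tried, with folds from 0.350 to 0.407, and stood at 0.50 against windows of the same input count.

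The log2 enrichment was below 0 in 7 members with a pseudocount of 1 or 8, as deposited, and in 8 when scaled to the promoter totals or centred, as Elavl4 then stood at -0.02 or -0.01. Those settings shifted all windows, of which 48.4% and 50.4% were then below 0, against 40.5% as deposited. With a pseudocount of 1, Eomes stood at -1.15, Nhlh1 at -0.72, Gadd45g at -0.59 and Insm1 at 0.62. Of the 250 bases upstream alone, the Eomes promoter had 46.4% GC and no AAGTT, which there was in 35.3% of promoters. Depth limits every single promoter: Eomes rests on 24 reads and Gadd45g on 15. The fits without each ChIP replicate were not run, because the table does not give them apart. No paired analysis was possible because the table has a single ST18 column, with no number of a ChIP sample, and the RNA samples were not analysed here.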
